A study of Mus musculus with 6 samples.

Results

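The 10 genes described here encode alpha and beta tubulins, the subunits of microtubules: the beta isotypes Tubb2a, Tubb2b, Tubb5, Tubb6 and Tubb4b and the alpha isotypes Tuba1a, Tuba1b, Tuba1c, Tuba4a and Tuba8. The family was chosen from the measured signals of this study, because Tubb2a differed strongly between fast-food and chow livers, and its relatives were added to it. Tubb2a's diet difference is therefore given as a description, with no test. Where several probe sets carried a symbol alone, the set with the highest mean signal over all arrays stood for the gene. Such a probe set existed for 8 of the 10 genes, and for 18193 genes in all. Of the 8, 6 were measured, meaning above the floor of 221.4 signal units (the 50th percentile of all values) on at least 1 array. Tuba1b and Tuba1c were listed only on probe sets shared with another gene name, and Tubb2b and Tubb6 lay below the floor on every array.

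RNA came from whole livers of male C57BL6/J mice, an inbred strain, aged 6 to 8 weeks at the start, and was hybridised to Affymetrix Mouse Genome 430 2.0 arrays. The groups of the 2-month study were a fast-food diet with canertinib mixed into it at an estimated 80 mg/kg per day throughout, the fast-food diet alone, and chow. Those of the 5-month study were the diet with canertinib injected intraperitoneally at 80 mg/kg on 5 days per week in the final 5 weeks, the diet with PBS vehicle injections on the same schedule, and chow, for which the labels name no injection. The diet held 21% fat, 34% sucrose and 0.2% cholesterol by weight, with glucose and fructose in the drinking water; canertinib is an irreversible inhibitor of EGFR and the related ERBB kinases. Each group was 1 array carrying RNA pooled from 3 to 4 livers, so no value has an error and no difference has a replicate check or a test. The number of arrays limits the precision. Route and length of treatment differed together between the studies, and injection cannot be told apart from diet in the 5-month comparisons with chow. In whole liver, more RNA of a gene per cell and more cells of a type that expresses it cannot be told apart.

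Alpha and beta tubulin bind as a pair, and these pairs line up into the walls of microtubules. In hepatocytes microtubules are the tracks along which lipoprotein particles and albumin are carried to the sinusoidal surface and membrane proteins to the bile canaliculus. Mammals have several genes for each subunit, whose products are nearly alike outside their acidic C-terminal tails, where most modifying enzymes and associated proteins act. Cells also limit their own tubulin: excess free subunits cause tubulin messages to be degraded during translation, with TTC5 recognising the emerging tubulin chain.

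The promoter sequences below are shown because Tubb2a and Tuba1a were the members that reached a 2-fold difference in some comparison, while Tubb5 did not. They are from RefSeq on GRCm38.p6, run 5′ to 3′ in the direction of transcription, and cover 250 bases before and 50 bases after the listed start. Tubb2a is shown at chr13:34077959-34078258 (minus strand), Tubb5 at chr17:35838252-35838551 (minus strand) and Tuba1a at chr15:98953452-98953751 (minus strand). Capitals mark matches to any of the motifs searched.
Tubb2a: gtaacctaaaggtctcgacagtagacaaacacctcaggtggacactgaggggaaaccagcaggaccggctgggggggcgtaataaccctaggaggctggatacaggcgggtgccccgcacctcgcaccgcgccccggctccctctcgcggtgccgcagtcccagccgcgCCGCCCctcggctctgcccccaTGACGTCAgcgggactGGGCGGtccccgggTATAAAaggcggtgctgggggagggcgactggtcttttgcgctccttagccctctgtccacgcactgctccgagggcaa
Tuba1a: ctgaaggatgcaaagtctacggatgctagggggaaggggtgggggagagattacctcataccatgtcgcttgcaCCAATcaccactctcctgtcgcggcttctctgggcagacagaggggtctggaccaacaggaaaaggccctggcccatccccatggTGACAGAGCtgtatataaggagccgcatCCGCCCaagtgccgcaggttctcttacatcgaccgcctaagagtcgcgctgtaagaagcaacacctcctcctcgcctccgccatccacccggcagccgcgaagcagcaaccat
Tubb5: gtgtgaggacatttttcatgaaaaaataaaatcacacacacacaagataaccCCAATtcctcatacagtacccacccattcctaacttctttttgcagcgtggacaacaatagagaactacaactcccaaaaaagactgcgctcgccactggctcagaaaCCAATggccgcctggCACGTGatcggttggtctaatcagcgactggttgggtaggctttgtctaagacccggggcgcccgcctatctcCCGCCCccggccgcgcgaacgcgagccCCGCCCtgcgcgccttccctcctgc
The motifs were searched on both strands: the TATA box in the form TATAAA, the box named for its letters CCAAT, the GC box in the form GGGCGG, the E box in the form CACGTG, the AP-1 site with any middle base, the antioxidant response element in the form TGACNNNGC, the cAMP response element in the form TGACGTCA and the direct repeat bound by PPAR receptors. The cAMP response element was added after the Tubb2a sequence had been read. The Tubb2a window held a TATA box whose first base lay at -29 relative to the start, GC boxes at -81 and -43 and a cAMP response element at -59. Over 32851 promoter windows of the same length, the TATA box was present in 13.6%, the GC box in 35.7% and the cAMP response element in 1.79%. Tubb5 held 2 CCAAT boxes, an E box and 2 GC boxes, and Tuba1a held a CCAAT box, a GC box and a match to the antioxidant response element; the CCAAT box was present in 37.4% of windows, the E box in 7.15% and the antioxidant response element in 12.4%. Promoter windows of 8 members were searched, and those of the remaining members were not. The 8 searched windows held no match to the AP-1 site, found in 7.81% of windows, or to the PPAR repeat, found in 0.0396%. A match is a stretch of letters and was not tested as a site.

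Tubb2a encodes a beta isotype best known as a major form of neurons. In the 2-month study its signal was 624.0 with diet and canertinib, 7658.7 with the diet and 726.9 with chow. In the 5-month study it was 2671.9 with diet and canertinib, 8652.3 with the diet and 1440.3 with chow. Both diet arrays thus stood above the 4 others. From lowest to highest the order was diet with canertinib at 2 months, chow at 2 months, chow at 5 months, diet with canertinib at 5 months, diet at 2 months and diet at 5 months. The only arrays sharing a treatment were the chow arrays, which differed 1.98-fold, higher at 5 months. They also differ in study and time, so their gap is not a spread of repeats. Among neighbours in that order only diet with canertinib at 5 months and diet at 2 months lay further apart than the chow arrays, at 2.87-fold. The remaining steps were between 1.13-fold and 1.98-fold, the largest of them being the chow gap itself.

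**Figure D1:**
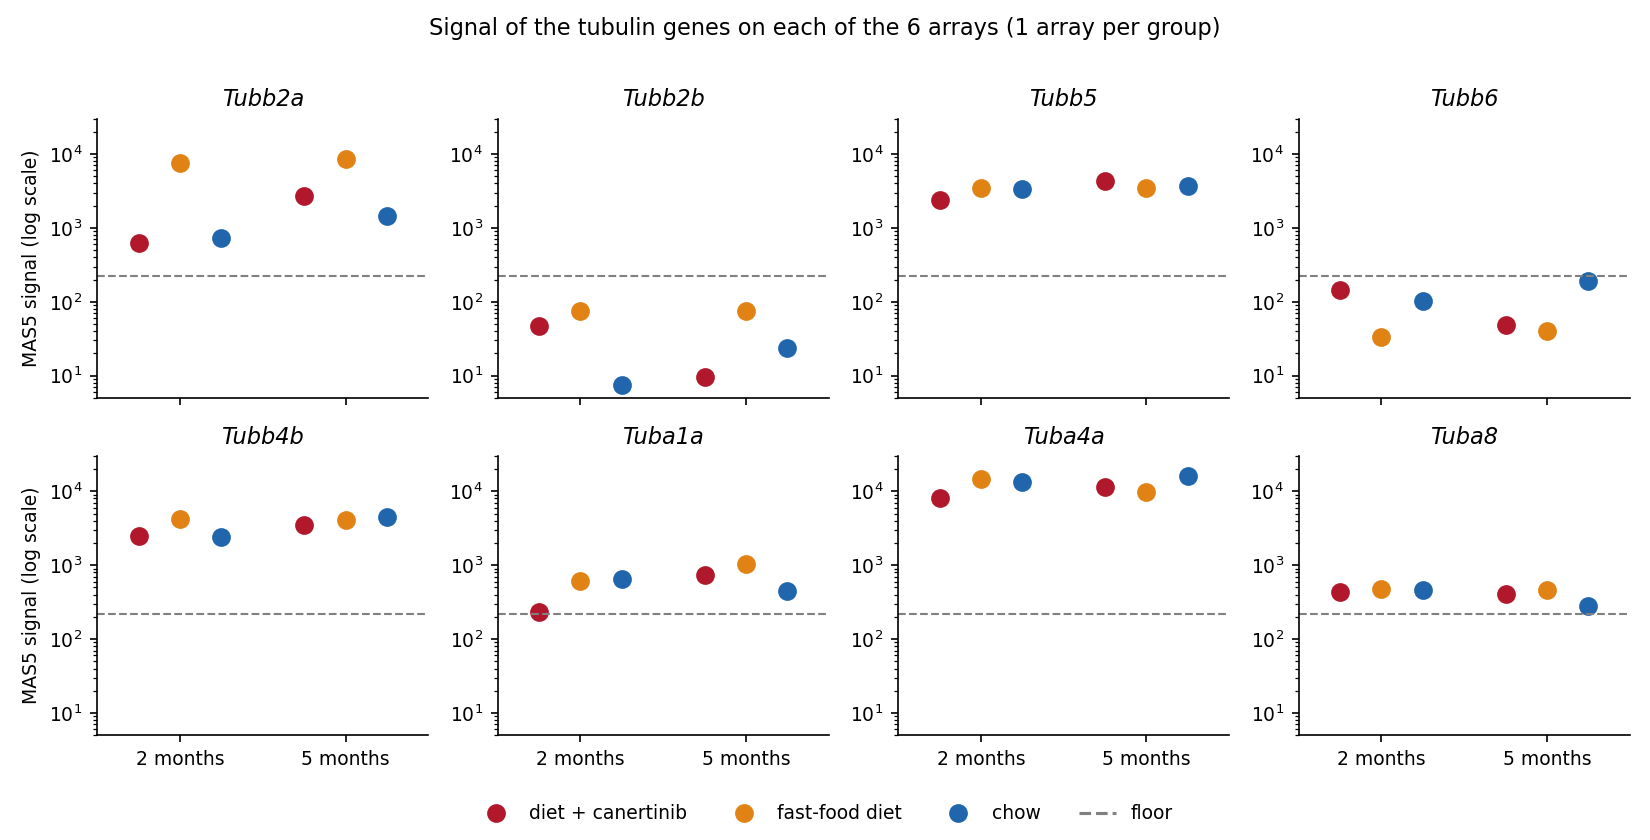
MAS5 signal on a log scale for the 8 tubulin genes with a probe set of their own, with 1 point per array, coloured by group, and the floor of 221.4 as a dashed line. Tubb2a stood at 7658.7 and 8652.3 on the diet arrays, above its 4 other arrays, whereas Tubb2b and Tubb6 were below the floor throughout; heights are to be compared within a gene and not between genes.

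With the fast-food diet Tubb2a was 10.5-fold higher than with chow at 2 months and 6.01-fold higher at 5 months, log2 differences of 3.40 and 2.59. These ranked 4th and 12th from the highest of 13988 measured genes. No other member was as far from chow on either diet array. At 2 months 1 of the 6 measured members, Tubb2a itself, was at least 2-fold higher and 0 were at least 2-fold lower, while 1.98% of all measured genes were higher and 1.55% lower by that much. At 5 months 2 members, Tubb2a and Tuba1a, were at least 2-fold higher and 0 lower, against 2.72% and 1.83% of all genes. Since Tubb2a's diet difference brought the family into view, nothing is read from these counts. The median over the 6 members was 0.09 at 2 months and 0.31 at 5 months on the log2 scale, and that over all measured genes was 0.00 at both times.

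With canertinib added to the diet, Tubb2a was 12.3-fold lower than with the diet alone at 2 months and 3.24-fold lower at 5 months, log2 differences of -3.62 and -1.70. They ranked 10th and 59th from the lowest of the 13988 genes. These comparisons share the diet arrays with those above, so a high value on a diet array enters both. Set directly against chow, which does not use the diet arrays, the drug-treated liver had log2 differences of -0.22 at 2 months and 0.89 at 5 months. Tubb2a was therefore within 1.16-fold of chow when the drug was in the food for the whole study and 1.86-fold above chow when it was injected late. For comparison, the chow arrays differed by 0.99 on the log2 scale for this gene. The difference between the studies was not tested.

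Counted over the family, 0 members were at least 2-fold higher with canertinib than with the diet alone at 2 months and 2 were lower, Tubb2a and Tuba1a, where 3.55% and 3.26% of all genes were. At 5 months 0 were higher and 1, Tubb2a, was lower, against 2.19% and 2.73% of all genes. Against chow, the drug-treated liver had 0 members at least 2-fold higher and 1 lower, Tuba1a, at 2 months (3.80% and 2.74% of all genes), and 0 in either direction at 5 months (2.82% and 2.72%). Between the chow arrays 0 members were 2-fold apart in either direction, with 1.28% of genes higher and 1.32% lower at 5 months. The median over the 6 members for the drug against the diet was -0.82 on the log2 scale at 2 months and -0.20 at 5 months, beside 0.00 for all measured genes at both times.

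**Figure D2:**
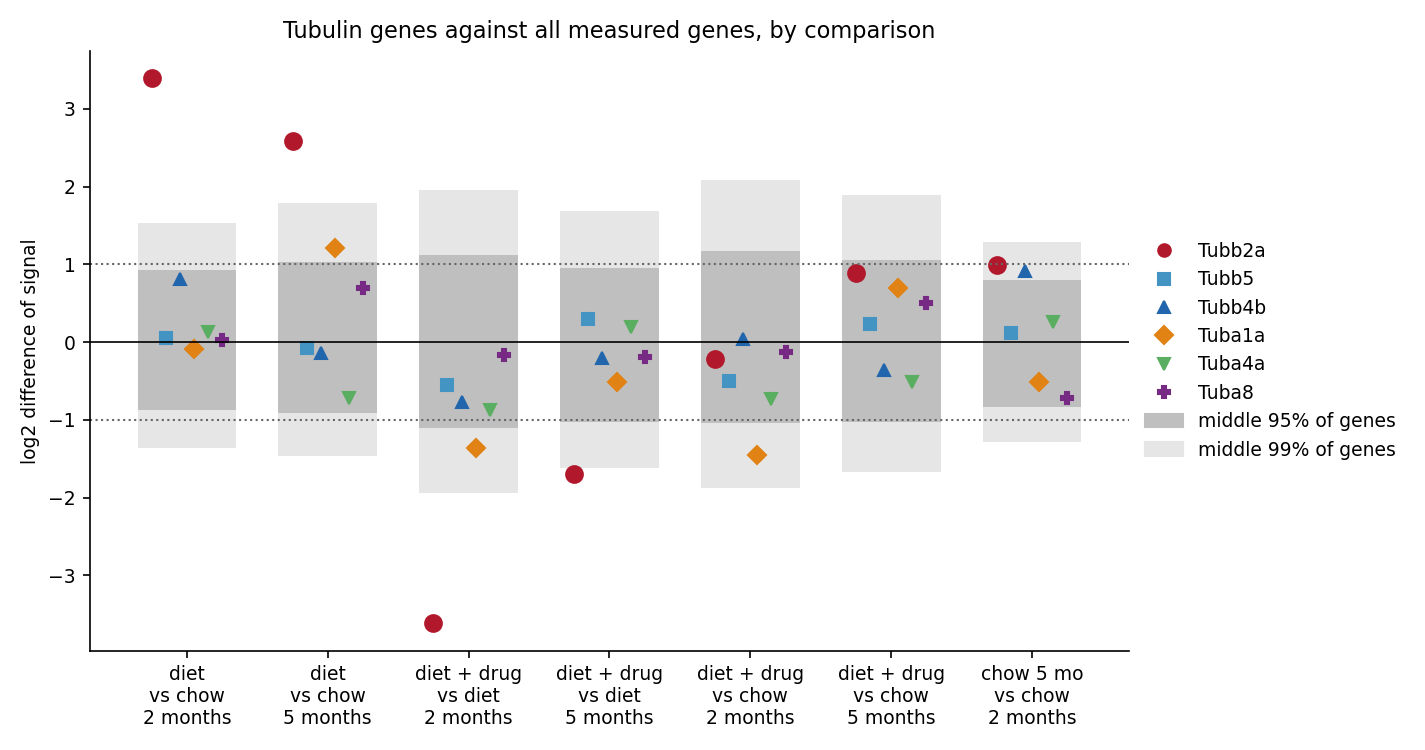
Log2 difference of signal for the 6 measured tubulin genes in each comparison, with light and dark grey bars for the wider and narrower central range of the 13988 measured genes and dotted lines at 2-fold. Tubb2a lay outside both bars in the diet comparisons (3.40 and 2.59) and in the canertinib comparisons with diet (-3.62 and -1.70) and inside both bars against chow (-0.22 and 0.89), while the chow arrays alone differed by 0.99.

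Tubb2a's values rest on 1 of its 2 probe sets, the one whose name ends in _s_at, a suffix Affymetrix gave to sets that may bind transcripts of several related genes. The other was below the floor on all 6 arrays and gives no difference. Tubb2b, the neuronal isotype closest to Tubb2a, lies beside it on chromosome 13 with 1 listed gene between them. The signal of Tubb2b was 46.5 with diet and canertinib, 75.9 with the diet and 7.6 with chow at 2 months, and 9.6 with diet and canertinib, 75.5 with the diet and 24.0 with chow at 5 months. All of these are below the floor, where values have no order. The only probe set of the pseudogene Tubb2a-ps2 above the floor was lower with the diet than with chow, at -0.44 and -0.54 on the log2 scale. How far the Tubb2a set binds transcripts of related genes was not tested.

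Tubb5, the beta isotype of most dividing and non-dividing cells, had a signal of 2371.7 with diet and canertinib, 3473.2 with the diet and 3350.4 with chow at 2 months. At 5 months it had 4272.2 with diet and canertinib, 3460.4 with the diet and 3639.1 with chow. On this probe set the diet arrays were within 1.04-fold and 1.05-fold of chow, while the other Tubb5 set was higher with the diet by 0.44 and 0.22 on the log2 scale. With the drug Tubb5 was 1.46-fold lower than with the diet at 2 months and 1.23-fold higher at 5 months. The other set was higher with the drug at both times, by 0.06 and 0.27, so the probe sets differed in sign at 2 months.

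Tubb4b, a beta isotype found in most tissues and in cilia, had a signal of 2455.7 with diet and canertinib, 4181.9 with the diet and 2386.9 with chow at 2 months. This is a profile like that of Tubb2a but smaller, 1.75-fold higher with the diet than with chow and 1.70-fold lower with the drug than with the diet. At 5 months the signal was 3517.7 with diet and canertinib, 4069.6 with the diet and 4499.0 with chow, a diet difference of -0.14 on the log2 scale. The chow arrays lay 1.88-fold apart on this set, more than any of its diet or drug differences, but only 1 of the 4 other sets above the floor there had the same sign. Of its 5 other probe sets, 4 were above the floor in the 2-month diet comparison and 3 of them were also higher. At 5 months 3 were above it and 0 shared the sign of the chosen set, with diet differences of 0.22, 0.58 and 0.07. Tubb6, a beta isotype of muscle and many other cells, was below the floor in both of its probe sets on all arrays.

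Tuba1a, an alpha isotype prominent in developing neurons, had a signal of 235.6 with diet and canertinib, 606.1 with the diet and 642.3 with chow at 2 months. At 5 months the signal was 729.4 with diet and canertinib, 1040.0 with the diet and 450.2 with chow. The 2-month drug array was the lowest of the 6 and only just above the floor, and the 5-month diet array was the highest. Tuba1a was 2.57-fold lower with the drug than with the diet at 2 months and 2.31-fold higher with the diet than with chow at 5 months. The matching values at the other time were 1.43-fold lower with the drug at 5 months and a log2 difference of -0.08 for the diet at 2 months. It has 1 probe set of its own, of the cross-hybridising _x_at kind. A set shared with Gm6682 had -0.13 on the log2 scale for the diet at 5 months and 0.10 for the drug against chow at 2 months, where the Tuba1a set had 1.21 and -1.45. The Tuba1a calls at 2 months ended with a floor at the 60th percentile, under which the drug difference against diet was -0.91 and that against chow was just short of 2-fold.

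Tuba4a, whose protein lacks the terminal tyrosine that most other alpha tubulins are made with, was above the floor on all arrays. Its signal was 8116.4 with diet and canertinib, 14842.4 with the diet and 13513.5 with chow at 2 months. At 5 months Tuba4a had 11324.5 with diet and canertinib, 9893.9 with the diet and 16212.9 with chow. It was 1.83-fold lower with the drug than with the diet at 2 months and 1.64-fold lower with the diet than with chow at 5 months. For the first of these differences its other probe sets had -1.09 and -0.02 on the log2 scale, the latter close to no change. For the second, 1 of them had the same sign. The set with -0.02 was the one that disagreed, with 1.16 for diet against chow at 5 months. It differed by -1.91 between the chow arrays.

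Tuba8, an alpha isotype of muscle, testis and brain, had a signal between 284.8 and 478.8 on all arrays. It was 428.3 with diet and canertinib, 478.8 with the diet and 468.2 with chow at 2 months, and 404.3 with diet and canertinib, 460.9 with the diet and 284.8 with chow at 5 months. The lowest array was chow at 5 months, 1.64-fold below chow at 2 months. The other Tuba8 probe set was above the floor on only 3 arrays. It had -0.18 on the log2 scale between the chow arrays, where the chosen set had -0.72. For the diet at 2 and 5 months it had -0.18 and 0.30, where the chosen set had 0.03 and 0.69. Each of these values of the other set involves an array at the floor. Across the family the Pearson correlation with Tubb2a over the 6 log2 signals was 0.76 for Tubb4b, 0.71 for Tuba1a, 0.49 for Tubb5, 0.27 for Tuba8 and 0.15 for Tuba4a, a description over arrays that share the study's groups.

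The 8 genes whose profiles were most like that of Tubb2a were sought by Pearson correlation over the same 6 arrays among the 369 genes whose highest signal was at least 4 times the lowest. They were Denn2b with r of 0.97, Adamtsl2 with 0.95, Cd36 with 0.94, Iqsec1 and Anxa2 with 0.93, Cd74 with 0.91, and Wfdc2 and Aqp8 with 0.90. Tubb2a was chosen for its diet difference, so high diet arrays in these genes follow from the choice. Their values are given as a description. Denn2b encodes an exchange factor for the small GTPase Rab13, Iqsec1 one for Arf6, Adamtsl2 a secreted matrix glycoprotein, Cd36 a fatty acid translocase and Aqp8 a water channel of hepatocytes. Anxa2 encodes a calcium-dependent membrane-binding protein, Cd74 the invariant chain of MHC class II and Wfdc2 a secreted epithelial protein. Cd36 had signals of 1083.8 with diet and canertinib, 3279.0 with the diet and 725.9 with chow at 2 months, and 2482.1 with diet and canertinib, 4626.2 with the diet and 947.3 with chow at 5 months. Its 5-month drug array thus stood nearer to the diet than to chow, as measured by log2 differences of -0.90 against diet and 1.39 against chow. Aqp8 had 1581.6 with diet and canertinib, 6928.9 with the diet and 2403.0 with chow at 2 months, and 2438.5 with diet and canertinib, 6226.2 with the diet and 3610.0 with chow at 5 months. The drug arrays were below chow at both times. Denn2b was at least 4.77-fold higher with the diet than with chow at 2 months, its chow and drug signals being below the floor, and 1.72-fold higher at 5 months. Anxa2 had a diet difference of 1.45 at 2 months and of 2.63 at 5 months, and its drug differences against diet were -1.82 and -1.30.

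**Figure D3:**
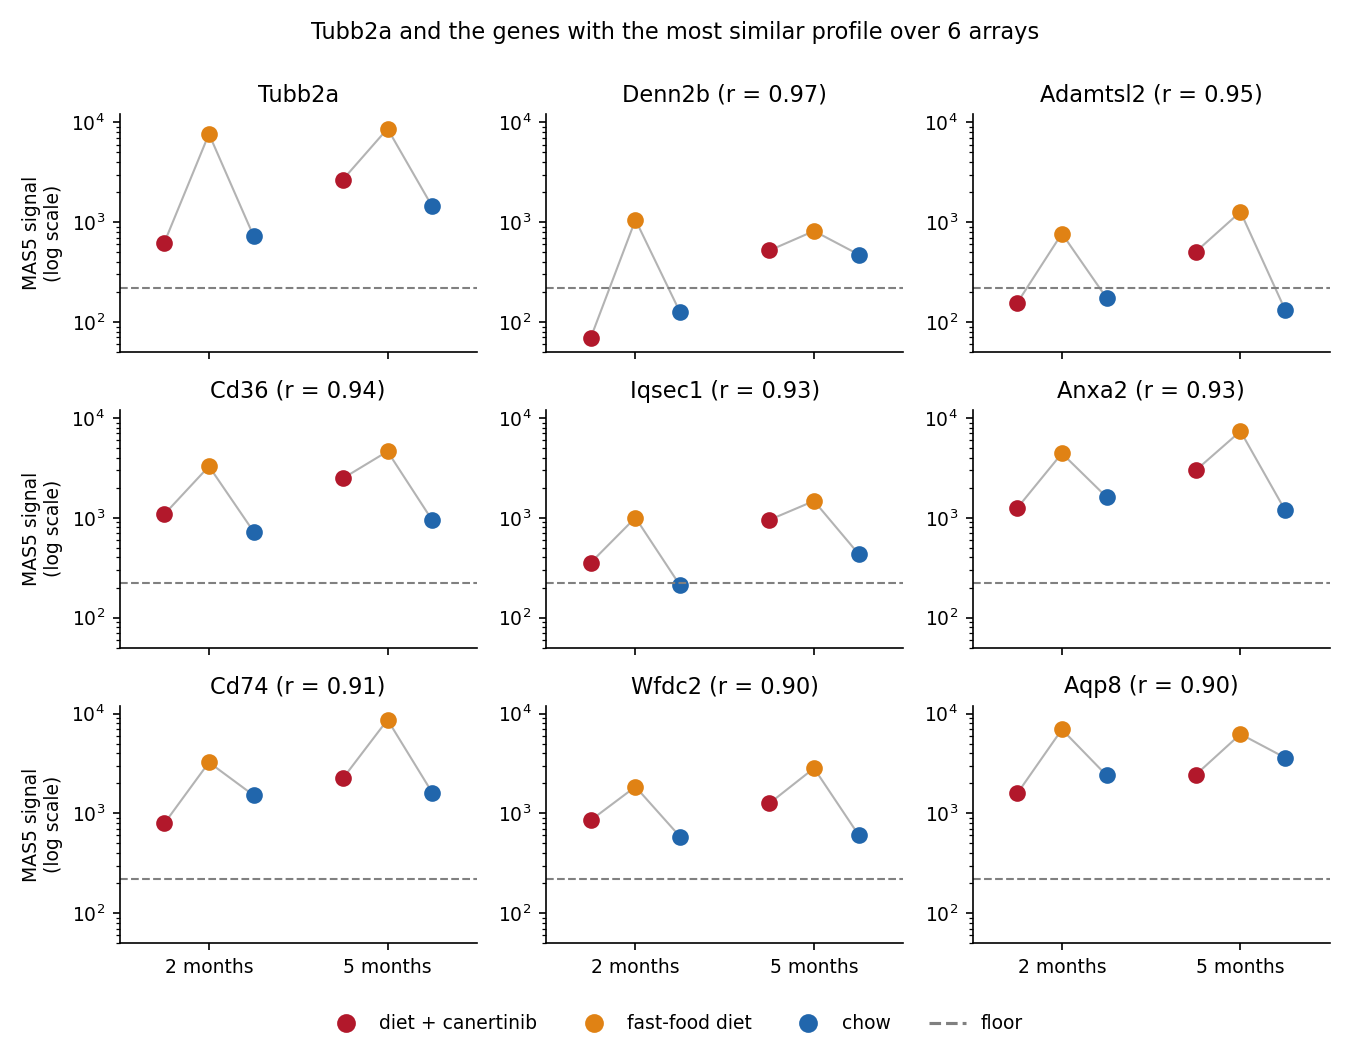
MAS5 signal on a log scale for Tubb2a and the 8 genes most correlated with it, with 1 point per array, lines joining the arrays of a study and the floor dashed. In each gene both diet arrays stood above the other arrays of their study. The genes were chosen for likeness to Tubb2a on these arrays, so this order follows largely from the choice. Heights are to be compared within a gene.

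Genes that make, modify or use microtubules were counted from lists chosen with earlier results known. None of the 21 measured genes for tubulin folding, which cover the CCT chaperonin, prefoldin, the tubulin cofactors and TTC5, was 2-fold different in any of the 6 diet and drug comparisons, and the list medians lay between -0.22 and 0.05. None of the 16 measured genes for microtubule-associated proteins was 2-fold different either, the nearest being Stmn1. In these comparisons between 1.55% and 3.80% of all measured genes were past 2-fold in each direction. Stmn1, which encodes the tubulin-sequestering protein stathmin, was singled out after its values were seen. It had signals of 1265.2 with diet and canertinib, 2347.8 with the diet and 1187.9 with chow at 2 months, and 1435.7 with diet and canertinib, 1839.3 with the diet and 1380.1 with chow at 5 months. Its log2 differences for the diet were 0.98 and 0.41.

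Among 12 measured genes for tubulin-modifying enzymes, 1 was 2-fold different in 1 comparison, the deacetylase gene Sirt2. It was higher with the drug than with the diet at 5 months by 1.19 on the log2 scale (2.19% of all genes 2-fold higher). Among 14 measured motor genes it was 1 in 1 comparison, the dynein light chain gene Dynll1. It was higher with the drug than with chow at 5 months by 1.39 (2.82% of all genes 2-fold higher). Sirt2 and Dynll1, and the tubulins and mitotic genes named next, were named after their values were seen. Of the 5 measured tubulins outside the family, 1, Tuba3b, was 2-fold different in 1 of the 6 comparisons. It was at least 2.18-fold lower with the drug than with chow at 5 months, where 2.72% of all genes were 2-fold lower. Tubb1, Tubb4a and Tube1 were higher on all 2-month arrays than on all 5-month arrays, as were 7.67% of all measured genes, with 5.43% the other way round. None of the 6 members was separated by study in this manner. Tubb3, the neuronal beta isotype, was below the floor on every array.

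Among 10 measured genes of mitosis, such as cyclins, 1 was at least 2-fold higher and 0 lower with the diet at 2 months (1.98% and 1.55% of all genes). At 5 months 0 were 2-fold different in either direction (2.72% and 1.83%). The 1 gene, Ccna2, was also 2-fold apart between the chow arrays, its signal on the 2-month chow array being below the floor. With the drug against the diet, 0 mitotic genes were 2-fold different at either time. Against chow the drug array had 1 higher at each time, Ccna2 by at least 2.34-fold at 2 months and Cdc20 by 2.56-fold at 5 months. Of 15 measured genes of actin and intermediate filaments, 5 were at least 2-fold higher with the diet at each time and 0 lower, beside 1.98% and 2.72% of all genes higher. The list medians were 0.57 and 0.83, and Ezr, the gene of the membrane linker ezrin, had -0.40 and -0.22. Actg1, which encodes cytoplasmic gamma actin, had diet differences of 1.34 and 1.30, Vim, the mesenchymal intermediate filament, 1.09 and 2.32, and the actin-binding thymosin gene Tmsb10 1.05 and 1.84. Tpm1, an actin-stabilising tropomyosin, had a 5-month difference of 1.23 and was no less than 3.32-fold above chow at 2 months. With the drug against the diet, 0 of the 15 were 2-fold higher, and 1, Tmsb10 at -1.06, was lower at 2 months and 0 at 5 months. Of all genes 3.26% and 2.73% were that much lower. Actg1 stayed near its diet level, with 6244.4 and 9450.5 with diet and canertinib, 7539.4 and 9034.7 with the diet and 2978.3 and 3673.0 with chow.

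**Figure D4:**
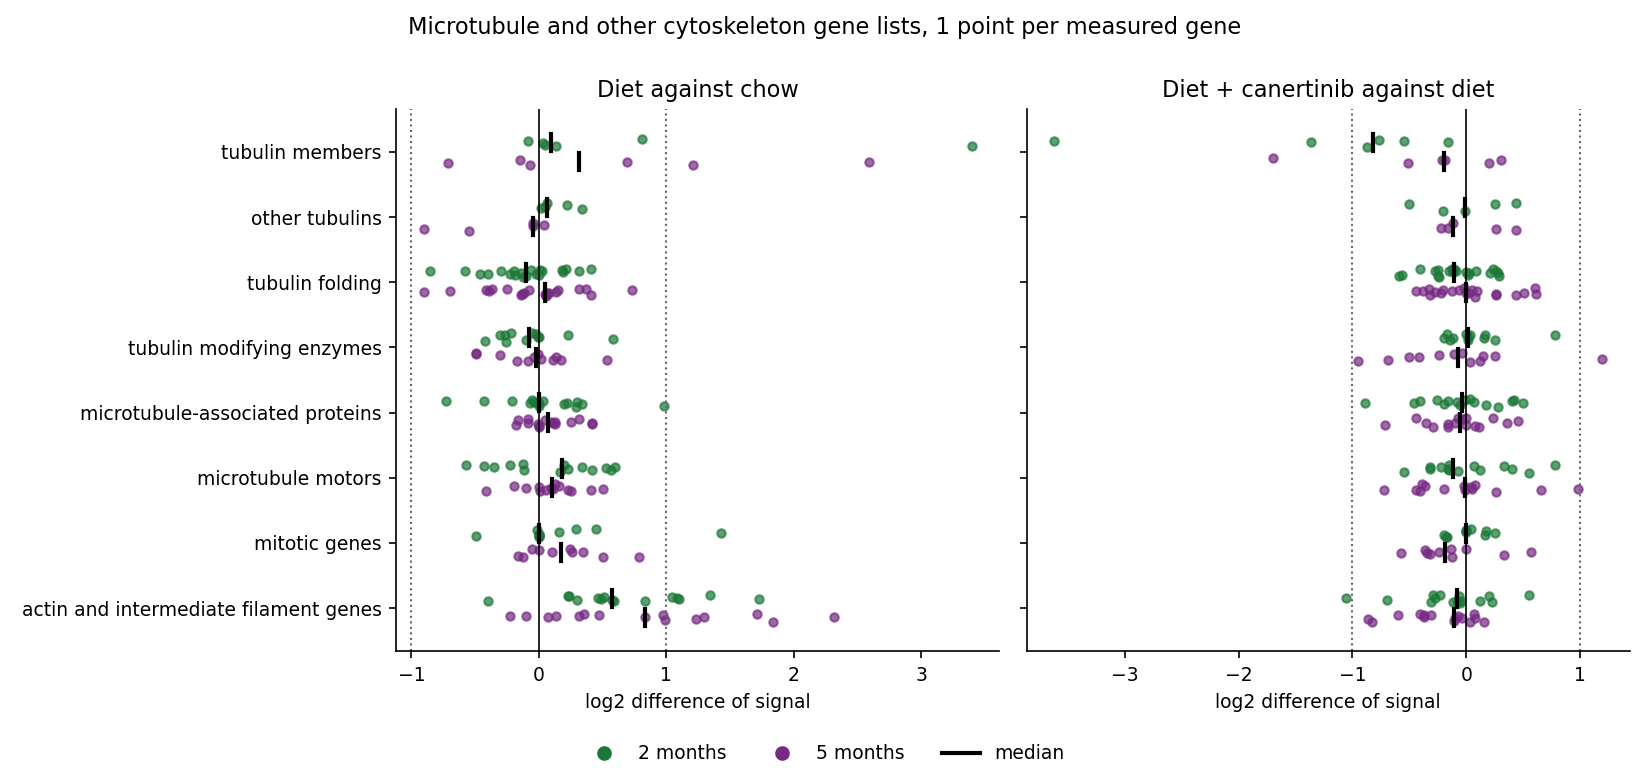
Log2 difference of signal for each measured gene of the tubulin family and of 7 cytoskeleton lists, for diet against chow and for diet with canertinib against diet, with black bars at the medians and dotted lines at 2-fold. The tubulin folding genes lie within 2-fold in both panels, while 5 of 15 actin and intermediate filament genes lie above 2-fold with the diet at each time.

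Several cell type markers moved along with these groups, and their part in the Tubb2a values was not tested. The summed signal of the 10 macrophage markers was 34700.9 and 43179.7 with diet and canertinib at 2 and 5 months, 27966.1 and 37162.1 with the diet, and 12383.3 and 13107.9 with chow, so within each study the array with the drug had the highest sum. Itgam was below the floor on all arrays. With the diet against chow, 5 of 9 measured macrophage markers were 2-fold higher at 2 months and 4 at 5 months, and 0 lower. Of all genes 1.98% and 2.72% were that much higher. With the drug against the diet 2 of these markers were higher and 0 lower at each time, beside 3.55% and 2.19% of all genes higher. By log2 differences for the diet, Cd5l had 1.79 and 2.27 and Lyz2, a lysozyme gene, 1.15 and 2.33; for the drug against the diet, the scavenger receptor gene Marco had 2.67 and 1.92 and the endotoxin co-receptor gene Cd14 1.03 and 1.41. Other markers of the list were lower with the drug, Adgre1 at -0.58 and Lyz2 at -0.49 at 2 months and Cd68 at -0.40 and Ctss at -0.20 at 5 months. The sum of 8 stellate cell and fibroblast markers was 18821.4 and 13417.8 with diet and canertinib, 20101.7 and 25742.2 with the diet, and 10509.1 and 8536.5 with chow, highest on the diet arrays in each study. With the diet, 3 of the 8 were 2-fold higher at 2 months and 4 at 5 months (1.98% and 2.72% of all genes), and 0 lower. With the drug against the diet 2 were lower and 0 higher at each time, beside 3.26% and 2.73% of all genes lower. The collagen gene Col3a1 had log2 differences of 1.81 and 2.79 for the diet, and was 3.99-fold and 4.94-fold lower with the drug than with the diet at 2 and 5 months. The other fibrillar collagen gene named by the same rule, Col1a1, was below the floor on the 5-month drug array and on both chow arrays. Of 5 cholangiocyte markers with a probe set, Krt7 and Cftr were below the floor on all arrays. Krt19 was above it only with diet and canertinib at 5 months, and Sox9 was at or below it with the diet at 2 months. The sum of the 5 includes these low values. It ranged from 1268.1 to 1858.6 with diet and canertinib, 818.7 to 1056.1 with the diet and 1030.6 to 1370.7 with chow.

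The neutrophil marker sum was 13925.9 and 15676.4 with diet and canertinib, 2381.6 and 2130.5 with the diet, and 2447.2 and 2596.6 with chow, with Camp at or below the floor on all arrays. With the drug against the diet, 4 of 5 measured neutrophil markers were 2-fold higher at 2 months and 5 at 5 months. At both times 0 were lower, and 3.55% and 2.19% of all genes were 2-fold higher. Against the diet, the drug arrays had log2 differences of 1.98 and 2.28 for the granule gene Ngp and 1.72 and 1.58 for the lactoferrin gene Ltf. At 5 months S100a8 had 4.37, and the other calprotectin subunit gene S100a9 was below the floor on both diet arrays. Endothelial markers summed to 10275.4 and 8221.6 with diet and canertinib, 8881.2 and 8399.1 with the diet, and 7133.3 and 6704.3 with chow, in each case at 2 and 5 months. Lymphocyte markers summed to 3278.6 and 2989.1 with diet and canertinib, 3476.6 and 2638.7 with the diet, and 3508.2 and 3255.0 with chow, with Cd3d at or below the floor throughout. All 7 hepatocyte markers with a probe set, among them Alb and Hnf4a, were above the floor on every array, with sums of 316033 and 248894 with diet and canertinib, 247653 and 181884 with the diet, and 214151 and 233613 with chow. Actin's control probe sets give RNA quality as a log2 gap, 3′ minus 5′, which was 1.19 and 1.12 with diet and canertinib, 0.85 and 0.98 with the diet, and 0.94 and 0.85 with chow. The actin gap was widest on the arrays with the drug. The same gap for Gapdh did not follow that order, at -0.20 and -0.14 with diet and canertinib, -0.30 and -0.22 with the diet, and -0.18 and -0.09 with chow. Their part in the tubulin differences was not tested.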

How the data were processed

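Liver RNA of 6 groups was measured on 6 arrays, 1 per group. Per the labels' protocols, biotinylated cRNA was made from 6 ug of total RNA and RNA of 3 to 4 livers was pooled per array. MAS5 made the signals, per the submitters' processing notes, which name no version. Intensity values were deposited on a linear scale, and each array's mean without its lowest and highest 2% of probe sets was about 499.9. Arrays have no read depth.

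Of 45101 probe sets, 34958 had 1 symbol in the platform annotation, 932 several and 9211 none; 34754 of the first were matched to RefSeq gene IDs (GRCm38.p6), which changed no symbol. Control probe sets were left out. Signals were raised to a floor of 221.4 and log2 transformed, leaving 13988 of 18193 genes above it on at least 1 array. Where 1 of the arrays compared was at the floor, the fold is a lower bound. Comparisons were differences of single arrays with no test, a 2-fold limit and the share of all measured genes past it. The members and gene lists were chosen with earlier results of these data known. Named were all members, up to 4 genes per list at least 2-fold different in the same direction at both times, and the 8 genes most correlated with Tubb2a. Other genes named, among them single markers given for their floor status or direction, were chosen after their values were seen. Alternatives were quantile normalization, median centring, a floor at the 40th percentile, at the 60th or absent, the mean over probe sets, sets ending in _s_at, _x_at or _a_at left out, and 1.5-fold. The calculation was tested on simulated data with changes put only into genes well above the floor. Changes in genes near the floor were not checked by it. Python 3.11.15 with NumPy 2.4.6, pandas 2.3.3 and matplotlib 3.10.9 was used.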

Additional observations from a re-analysis of the deposited data

Results flagged for a closer look

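Some members moved in opposite directions in the studies, each by more than 0.21 on the log2 scale. This limit is the median gap between the chow arrays over all measured genes, not the gap of the gene itself. With 1 array per group these differences were not tested. Tubb2a with diet and canertinib against chow had log2 differences of -0.22 at 2 months and 0.89 at 5 months. Its own chow arrays differed by 0.99, a larger gap than either value. Tuba1a had -1.45 and 0.70 in the same comparison. Tubb5 had -0.50 and 0.23 against chow and -0.55 and 0.30 against the diet, but its other probe set had the same sign in both studies, 0.50 and 0.49 against chow and 0.06 and 0.27 against the diet.

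Probe sets listed with a member and a second gene name were used in no comparison above, and some were higher than on the chow arrays. The set listed with Tuba1b and Gm5620 had log2 differences against chow of 0.34 with the diet at 2 months, 0.40 with the diet at 5 months and 0.58 with diet and canertinib at 5 months. Of the sets listed with Tuba1c and Gm6682, the _at set had 0.26 and 0.72 with diet and canertinib and 0.47 and 0.80 with the diet at 2 and 5 months. The _x_at set with the same names had 0.78 and 0.30 with the diet at 2 and 5 months. The set listed with Tuba1a and Gm6682 had 0.10 and -0.44 with diet and canertinib and 0.11 and -0.13 with the diet against chow at 2 and 5 months. None of these reached 2-fold, and which of the named genes each set reports cannot be told apart.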

How the results depend on the processing

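For Tubb2a the settings that could move the value were quantile normalization, median centring and the mean over probe sets; the direction was the same under each. Its lowest signal is above every floor tried, so the floors bear on nothing here. The spans were 1.70 to 3.50 and 1.29 to 2.65 for diet against chow at 2 and 5 months and -3.72 to -1.81 and -1.81 to -0.85 for the drug against diet. The smallest sizes came from averaging its 2 probe sets, of which 1 is at the floor. This left 0 members at least 2-fold lower with the drug against diet at 5 months (1.7% of all genes). Leaving out sets ending in _s_at, _x_at or _a_at removed the Tubb2a and Tuba1a sets. Then 0 members were 2-fold higher with the diet at either time (2% and 2.7% of all genes). With the drug against diet 1 (Tuba4a) was lower at 2 months and 0 at 5 months (3.07% and 2.67%). With a floor at the 60th percentile 1 member was lower with the drug against diet at 2 months (2.84% of all genes) and 0 against chow (2.19%). With no floor Tubb2b and Tubb6 entered at signals below the floor. With the diet 2 members were then higher and 1 lower at 2 months, beside 7.34% and 8.33% of all genes. At 5 months 3 were higher and 1 lower, beside 8.94% and 7.08%. With the drug at 2 months 1 was higher against diet (11% of all genes) and 1 against chow (10.2%). At 5 months 2 were lower against diet (9.47%) and 2 against chow (9.14%). At 1.5-fold, 2 were higher with the diet at 2 months (7.5% of all genes). At 5 months 3 were higher and 1 lower with the diet (8.45% and 7.57%). With the drug at 2 months 4 were lower against diet (10.6%) and 2 against chow (10.1%). At 5 months 2 were higher with the drug against chow (8.92%). Of the 8 genes most like Tubb2a, 8 were shared under quantile normalization and 0 with no floor, when 4009 genes were compared in place of 369; among those same 369 genes, an alternative chosen after seeing the data, 7 were shared. Of 240 values of single members, 220 moved by less than 0.282. This limit was derived from the spread over genes of the difference between the chow arrays. Those arrays also differ in study and time, so it is not the spread of 1 array alone. None of the values of at least 2-fold changed sign. Much of this was fixed in advance, since the floors could not move a value whose arrays lay above them. With sets ending in _s_at, _x_at or _a_at left out, Tubb2a and Tuba1a had no value, so their sign was not checked there. No paired analysis was possible because each group held 1 array and so 1 replicate number. A fit with the studies as repeats was left out by choice, since the members were chosen on these differences.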
